A study of Mus musculus with 6 samples.

Results

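Osr1, Osr2, Pax9 and Pax1 are 4 transcription factor genes tied to the outgrowth of the palatal shelves, the paired processes that grow from the maxilla and fuse to form the secondary palate. They were chosen by name and found by gene symbol, and make up 4 of the 56691 genes in the count tables. The series holds bulk RNA-seq of palatal shelves from E14.0 mouse embryos (embryonic day 14.0) of the inbred strain C57BL/6J, with no transgene, deletion or treatment in either group. The anterior group (3 libraries) came from the front part of the shelves and the posterior group (3 libraries) from the back part, each cut out by microdissection. A library therefore mixes the mesenchyme, epithelium and other cells of its region. The study describes the libraries as biologically independent samples, and the labels do not tie them to embryos or litters, so the p-values measure the spread between these libraries.

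The odd-skipped related genes Osr1 and Osr2 encode zinc finger transcription factors, and Pax9 and Pax1 encode paired domain transcription factors of one subgroup of the Pax family. In the mouse, Osr2 is needed for the growth and elevation of the palatal shelves and restrains tooth formation on the tongue side of the molar row, where it counteracts Msx1 and Bmp4. Pax9 is needed for palate and tooth development, and acts upstream of Osr2 in palatal mesenchyme. Osr1 is best known for its part in heart and urogenital development, and Pax1, with Pax9, for the vertebral column and the pharyngeal pouches.

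All 4 genes are close enough to their paralogs that their coding sequences can be set base against base. Over the aligned coding sequence, Osr1 (801 bases) and Osr2 (939 bases) were identical at 67.5% of 785 bases, and Pax9 (1029 bases) and Pax1 (1341 bases) at 67.6% of 996 bases. The most alike stretches of 120 bases are printed 5′ to 3′ from the GENCODE M21 reference transcripts, because they show how far reads from one paralog could be told from those of the other. Capitals mark the bases that differ within a pair. The Osr stretches encode part of the zinc fingers and the Pax stretches part of the paired domain.
Osr1, coding bases 607 to 726: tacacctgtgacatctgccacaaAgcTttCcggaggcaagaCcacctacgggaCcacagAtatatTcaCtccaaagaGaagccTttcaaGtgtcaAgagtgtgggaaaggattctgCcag
Osr2, coding bases 598 to 717: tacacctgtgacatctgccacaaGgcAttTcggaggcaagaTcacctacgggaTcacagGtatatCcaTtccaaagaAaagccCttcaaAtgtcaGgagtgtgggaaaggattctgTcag
Pax9, coding bases 250 to 369: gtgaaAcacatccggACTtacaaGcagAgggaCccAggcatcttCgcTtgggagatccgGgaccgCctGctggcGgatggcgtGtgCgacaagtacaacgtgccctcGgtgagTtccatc
Pax1, coding bases 505 to 624: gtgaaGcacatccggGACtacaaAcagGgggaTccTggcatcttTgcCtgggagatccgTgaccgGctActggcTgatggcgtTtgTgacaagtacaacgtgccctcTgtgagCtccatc
Even here the Osr pair differed at 13 of 120 bases and the Pax pair at 18 of 120. The longest run of identical bases was 23 for Osr1 and Osr2 and 26 for Pax9 and Pax1, whether coding sequences or all annotated protein-coding transcripts were compared.

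Library depth ran from 11378736 to 15172733 reverse-stranded counts, and a count of 3, the limit that a count of 0 allows, corresponded to 0.198 to 0.264 CPM, counts scaled to a library total of 1e+06 (levels below also carry edgeR's TMM factors). Posterior replicates 2 and 3 stood apart from the other 4 libraries. Reads mapping to several places were 6.12% and 5.94% of their reads against 8.45% to 8.77%. Mitochondrial genes took 0.973% and 1.14% of their counts against 2.70% to 2.97%. For this reason each member and each ratio is also given for the 4 like libraries alone, posterior replicate 1 against the 3 anterior libraries; the other 2 are both posterior, so they give no comparison of their own. The regional labels were borne out by known regional genes. Msx1 and Shox2, anterior factors, were 176-fold and 32.9-fold higher in the anterior palate, and Meox2 and Tbx22, posterior factors, 24.5-fold and 23.8-fold higher in the posterior palate. Between the regions, 1169 of 15673 tested genes (7.46%) passed an adjusted p of 0.05 in edgeR's quasi-likelihood test, 4.87% higher in the posterior and 2.59% higher in the anterior palate. The 3 libraries of each region did not overlap in CPM for 28% of tested genes, 14.7% higher in the posterior and 13.4% higher in the anterior palate.

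The 4 genes did not share one regional pattern. Pax1 was higher in the posterior palate by 7.13-fold, at a low level, and Osr1 was higher in the anterior palate by 1.47-fold. The mean of Pax9 was higher and that of Osr2 lower in the posterior palate, but neither passed the test. All 4 genes passed the count minimum, 2 of the 4 passed the test, and these lay in opposite directions.

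**Figure D1:**
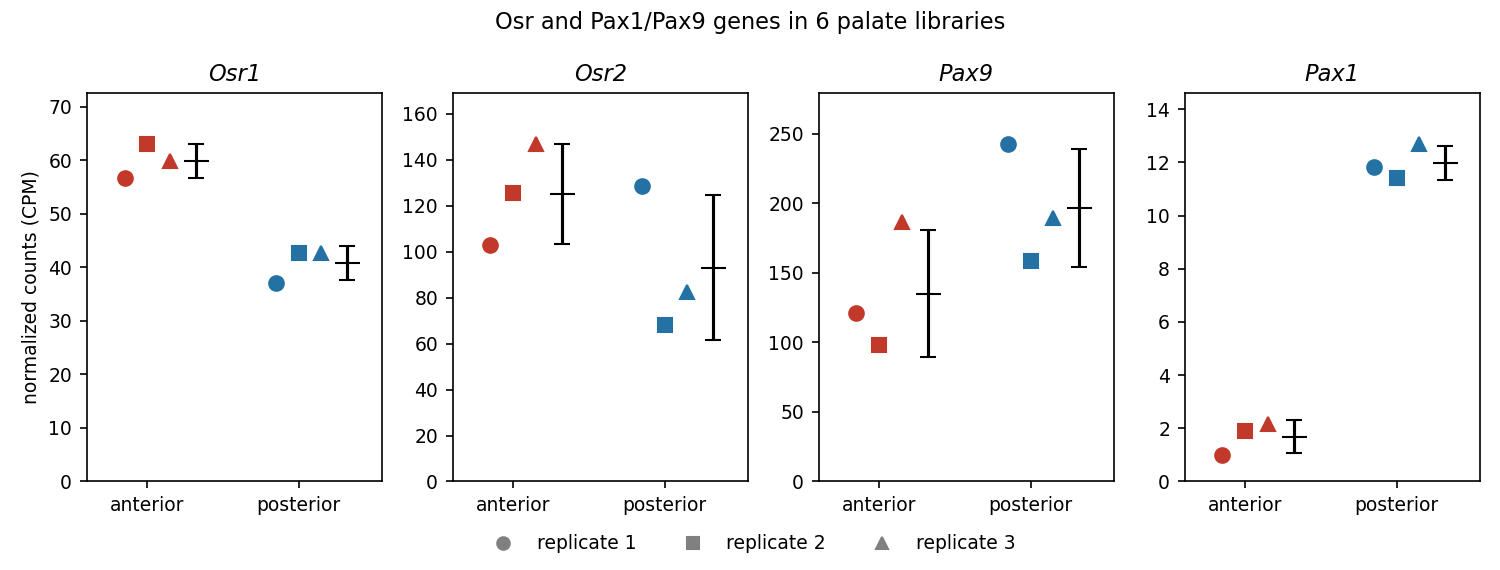
Normalized counts (CPM, y axis, from 0, a separate scale for each gene) of Osr1, Osr2, Pax9 and Pax1 in the anterior (red) and posterior (blue) palate. Each symbol is 1 library, shaped by replicate number, and black bars give the mean ± SD (n = 3). Osr1 and Pax1 separate the regions in opposite directions, while Osr2 and Pax9 overlap, with posterior replicate 1 the highest posterior library for both.

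Osr2 (ENSMUSG00000022330.6) lies on the plus strand of chromosome 15 from 35296098 to 35303305 in GRCm38. In the order of their replicate numbers, the anterior libraries held 103, 125 and 147 CPM and the posterior ones 129, 67.9 and 82.6 CPM. Posterior replicate 1 lay inside the anterior range, and the other 2 posterior libraries lay below every anterior library. The anterior mean was 125 ± 21.9 CPM and the posterior mean 93.1 ± 31.7 CPM (SD, n = 3). The log2 fold change, posterior over anterior, was -0.43 (SE 0.24, 95% interval -0.99 to 0.14), with an adjusted p of 0.304 in edgeR's quasi-likelihood test. An exact two-sided permutation test over the libraries gave p = 0.3, where 3 against 3 allows no p below 0.1. Which posterior libraries were used set this value. With posterior replicate 1 alone against the anterior libraries the log2 fold change was 0.04. Without that library it was -0.73 (adjusted p = 0.0053, edgeR), past the threshold. That fit called 7119 genes, against 1169 in the fit of all libraries, so a call there is common among genes. A regional difference of Osr2 thus rested on the posterior libraries that stood apart in multimapping and mitochondrial share; the part these differences had in it was not tested.

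Osr1 (ENSMUSG00000048387.9) lies on the plus strand of chromosome 12 from 9570116 to 9581500. It measured 56.8, 63.0 and 59.9 CPM in the anterior libraries and 37.1, 42.6 and 42.7 CPM in the posterior libraries. Every anterior library was above every posterior one, with little spread within a region. The means were 59.9 ± 3.14 CPM and 40.8 ± 3.22 CPM (SD, n = 3). The log2 fold change was -0.55 (SE 0.10, 95% interval -0.79 to -0.32), with an adjusted p of 0.0174 in edgeR's quasi-likelihood test and p = 0.1 in the exact permutation test, the smallest it can give. The difference was as large in the 4 like libraries, at -0.69 (adjusted p = 0.0067, edgeR). It was -0.44 (adjusted p = 0.063, edgeR) after a correction for transcript length, and its adjusted p rose to between 0.065 and 0.104 when anterior replicate 1, 2 or 3 or posterior replicate 2 was left out.

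Pax9 (ENSMUSG00000001497.19) lies on the plus strand of chromosome 12 from 56691767 to 56712822. Its level was 121, 97.7 and 186 CPM in the anterior libraries and 242, 158 and 189 CPM in the posterior libraries. Anterior replicate 3 sat between posterior replicates 2 and 3, so the regions overlapped, although the other 2 anterior libraries were below all posterior ones. The means were 135 ± 45.8 CPM and 197 ± 42.5 CPM (SD, n = 3). The log2 fold change was 0.54 (SE 0.25, 95% interval -0.05 to 1.13), with an adjusted p of 0.228 in edgeR's quasi-likelihood test and p = 0.2 in the exact permutation test. In the 4 like libraries it was 0.85 (adjusted p = 0.14, edgeR). Over 17 alternative settings the log2 fold change stayed between 0.35 and 0.85 and the adjusted p between 0.101 and 0.527, so Pax9 passed the threshold under none of them. The interval of the difference still included a 2-fold change toward the posterior palate.

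Pax1 (ENSMUSG00000037034.17) lies on the plus strand of chromosome 2 from 147361925 to 147393295. It had 13, 26 and 25 counts in the anterior libraries and 158, 158 and 185 counts in the posterior libraries. Scaled to depth, the front of the palate gave 0.986, 1.89 and 2.16 CPM and the back 11.8, 11.42 and 12.7 CPM. The lowest posterior library (exact Poisson 95% interval 9.70 to 13.3 CPM, counting error only) stood well above the highest anterior one (1.40 to 3.19 CPM), and the anterior counts were above the limit that a count of 0 allows. The means were 1.68 ± 0.616 CPM and 11.98 ± 0.648 CPM (SD, n = 3). The log2 fold change was 2.83 (SE 0.27, 95% interval 2.20 to 3.47), with an adjusted p of 0.00114 in edgeR's quasi-likelihood test and p = 0.1 in the exact permutation test. It was 2.82 in the 4 like libraries (adjusted p = 0.0031, edgeR). A posterior call with a log2 fold change at least as large was made for 169 of the tested genes (1.08%). In bulk tissue, fewer cells that express a gene cannot be told apart from less of its RNA per cell, and this holds for all 4 genes.

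By mean CPM over all libraries, which is not corrected for length, Pax9 stood above 92.7% of tested genes, Osr2 above 87.0%, Osr1 above 69.0% and Pax1 above 28.1%. Between genes, levels were compared per kilobase of exon (CPM per kb, over the union of annotated exons). These were 34.5 ± 6.03 for Osr2, 29.0 ± 1.52 for Osr1, 26.7 ± 9.05 for Pax9 and 0.374 ± 0.137 for Pax1 in the anterior libraries (SD, n = 3). The Osr2, Osr1 and Pax9 levels overlapped, and Pax1 lay below all of them. In the posterior palate the order was Pax9 at 38.9 ± 8.40, Osr2 at 25.7 ± 8.76, Osr1 at 19.7 ± 1.56 and Pax1 at 2.67 ± 0.144 CPM per kb (SD, n = 3). Neighbours among the upper 3 overlapped, and Pax1 was again below all others. The place of Osr2 depended on the length used, since its union of exons (3.623 kb) is longer than its longest protein-coding transcript (1.724 kb). Per kilobase of that transcript, Osr2 was at 72.6 ± 12.7 in front and 54.0 ± 18.4 behind (SD, n = 3), above Pax9 at 31.9 ± 10.8 and 46.5 ± 10.03 (SD, n = 3). With this length the ranges of Osr2 and Pax9 were apart in front and overlapped behind.

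Since Pax9 acts upstream of Osr2 and the paralogs may share tasks, 3 ratios were formed within each library from CPM per kb with 0.5 added, on the log2 scale. A ratio within a library depends little on the scaling between libraries. The log2 ratio of Osr2 over Pax9 was 0.24, 0.83 and 0.14 for the anterior libraries, in order of replicate number, and -0.43, -0.73 and -0.70 for the posterior ones. Osr2 was thus the higher of the pair per kilobase of exon in every anterior library and the lower in every posterior library, including posterior replicate 1; per kilobase of protein-coding transcript its posterior mean was above that of Pax9, while the difference between regions was nearly the same, at -1.03. The mean difference, posterior minus anterior, was -1.02, with p = 0.1 in the exact two-sided permutation test, the smallest it can give, and 0.15 after Benjamini-Hochberg adjustment over the 3 ratios. It was -0.83 in the 4 like libraries and stayed between -1.15 and -0.81 when any 1 library was left out. The regions thus did not overlap in this ratio, while they overlapped for each gene alone, in a design that cannot take this test below 0.05. For single genes, 28% of those tested did not overlap in CPM, and no such share was formed for ratios. The ratio joins 2 differences in opposite directions that were not called, -0.43 for Osr2 and 0.54 for Pax9.

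The log2 ratio of Pax9 over Pax1 was 5.09, 4.43 and 5.25 in the anterior libraries and 3.95, 3.39 and 3.51 in the posterior libraries. Pax9 exceeded Pax1 in every library, by less in the posterior palate, and the regions did not overlap. The difference was -1.31 (exact permutation p = 0.1, adjusted p = 0.15), and its size depended on the value added to the levels, at -2.02 with 0.1 and -0.44 with 2 CPM per kb. For Osr2 over Osr1 the log2 ratio was 0.05, 0.18 and 0.48 in the anterior and 0.97, -0.13 and 0.14 in the posterior libraries. Its regions overlapped, and the difference of 0.09 (exact permutation p = 0.9, adjusted p = 0.9) turned negative, to -0.23, without posterior replicate 1 and rose to 0.73 in the 4 like libraries.

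**Figure D2:**
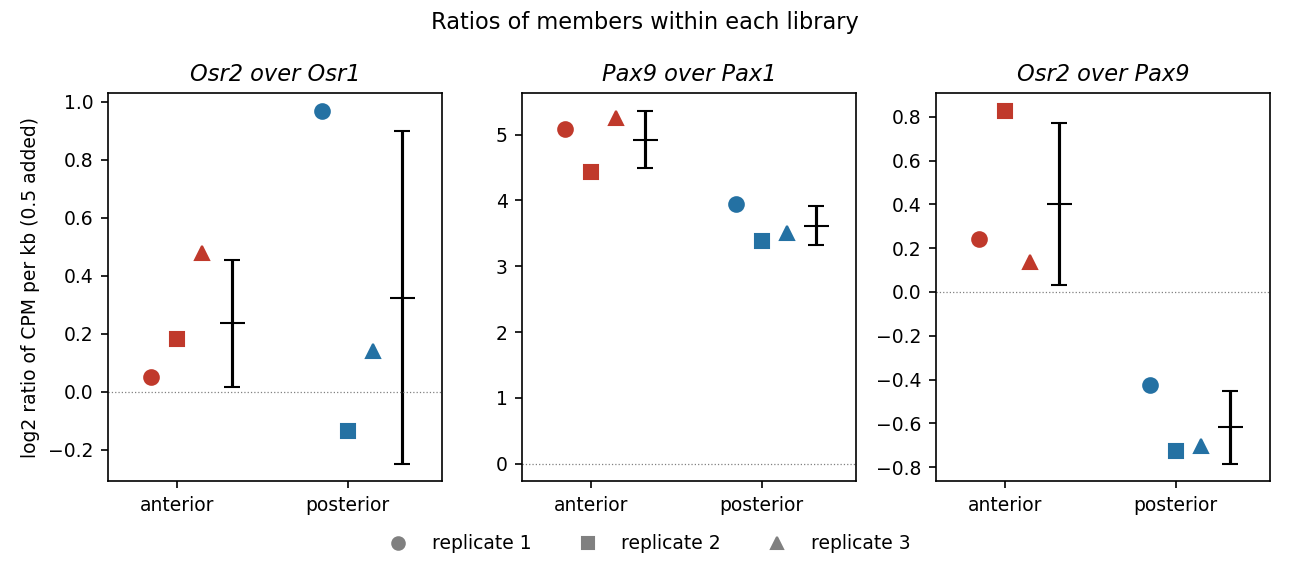
Log2 ratios of CPM per kb (0.5 added, y axis, a separate scale for each ratio) of Osr2 over Osr1, Pax9 over Pax1 and Osr2 over Pax9 in each anterior (red) and posterior (blue) library. Symbols mark the replicate number, black bars the mean ± SD (n = 3), and the dotted line equal levels. Osr2 over Pax9 lies above 0 in the 3 anterior and below 0 in the 3 posterior libraries, while Osr2 over Osr1 overlaps.

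RefSeq's promoter sequences held entries for Pax9 and Pax1, which share a subgroup and differ in level and in regional difference, and these are shown for that reason; Osr1 and Osr2 had none. Each is the 250 bases before a start that RefSeq annotates on the plus strand of GRCm38.p6, with no annotated exon inside it. These starts are inner ones, 3704 bases (Pax9) and 3069 bases (Pax1) downstream of the outermost gene starts given above, so other annotated transcripts begin upstream of the windows. Capitals mark matches on either strand to the core letters of well-known promoter elements. These were TATAAA for the so-called TATA box. They were also CCAAT for the box of that name, GGGCGG for the element bound by Sp1, and TGACG for part of the cAMP response element.
Pax9, chr12:56695221-56695470: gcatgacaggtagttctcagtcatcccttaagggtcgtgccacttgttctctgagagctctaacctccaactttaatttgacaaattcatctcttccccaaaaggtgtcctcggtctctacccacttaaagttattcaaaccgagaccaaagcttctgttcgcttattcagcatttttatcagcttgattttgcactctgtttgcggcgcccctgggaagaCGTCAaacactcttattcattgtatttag
Pax1, chr2:147364744-147364993: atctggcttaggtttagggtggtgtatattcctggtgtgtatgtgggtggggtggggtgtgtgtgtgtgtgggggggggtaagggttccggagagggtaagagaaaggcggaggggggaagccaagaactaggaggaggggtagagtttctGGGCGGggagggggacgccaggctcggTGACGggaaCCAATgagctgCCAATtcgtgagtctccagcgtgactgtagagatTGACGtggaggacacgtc
The Pax9 window held 1 match, to TGACG, and had a GC content of 43.6%. The Pax1 window held 2 matches to CCAAT, 1 to GGGCGG and 2 to TGACG, with a GC content of 58.8%; the median over all 32851 promoters was 52.4%. Of those promoters, 33.8% held CCAAT, 32.7% GGGCGG, 17.8% TGACG and 12.4% TATAAA. A match is a description of the letters only.

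The genes known to work with these factors in palate and tooth were followed as a list of 32, of which 30 passed the count minimum. Of the 30, 5 were higher in the posterior palate, 7 were higher in the anterior palate and 18 did not pass the test, against 4.87% and 2.59% of all tested genes. The median log2 fold change of the list was -0.18, against -0.004 for all tested genes. The list was chosen with earlier results of these data known, so its count is a description.

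Among its transcription factors, Msx1, the homeobox gene that Osr2 counteracts in the tooth field, was at 146, 184 and 282 CPM in the anterior libraries and 1.05, 1.37 and 1.03 CPM in the posterior libraries. Its posterior level was near 1 CPM, and the log2 fold change was -7.46 (SE 0.34, adjusted p = 0.000124, edgeR's quasi-likelihood test). Foxf1, a forkhead gene that responds to hedgehog signals, was at 78.5, 113 and 115 CPM in front and 15.4, 20.4 and 23.2 CPM behind, a log2 fold change of -2.37 (adjusted p = 0.00074). The LIM homeobox genes Lhx6 and Lhx8 were lower in the posterior palate by smaller amounts (log2 fold changes -0.72 and -1.01). Foxf2, the paralog of Foxf1, had a value in the other direction, 0.68, that did not pass the test (adjusted p = 0.056), nor did the osteoblast regulators Runx2 (-0.63, adjusted p = 0.093) and Sp7 (-1.39, adjusted p = 0.077).

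Of the signalling genes, Shh, the epithelial hedgehog ligand, and Fgf10, a mesenchymal growth factor that sustains its expression, were both higher in the anterior palate. Shh measured 21.5, 30.5 and 35.1 CPM in the anterior against 11.1, 9.46 and 15.4 CPM in the posterior libraries, and Fgf10 29.7, 29.1 and 31.1 against 12.6, 16.1 and 14.5 CPM. Their log2 fold changes were -1.27 (adjusted p = 0.0196, edgeR) and -1.06 (adjusted p = 0.0030). The hedgehog receptor Ptch1 (-0.65, adjusted p = 0.123) and the pathway's factor Gli1 (-0.46, adjusted p = 0.179) had lower posterior means but did not pass. Wnt5a, a noncanonical Wnt ligand, was lower in the posterior palate (-0.84, adjusted p = 0.0070). Dkk2, a Wnt modulator, and Axin2, a target of canonical Wnt signals, were higher there (1.01 and 0.65, adjusted p = 0.0050 and 0.046). The Wnt antagonist Dkk1 was at 71.0, 83.5 and 59.6 CPM in the anterior libraries and at 2.69, 4.05 and 23.9 CPM in the posterior libraries, and its log2 fold change of -2.80 just missed the threshold (adjusted p = 0.058).

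The bone morphogenetic proteins did not move as one group. Bmp3 rose from 22.7, 28.5 and 28.6 CPM in the anterior libraries to 84.9, 96.2 and 113 CPM in the posterior libraries, a log2 fold change of 1.88 (adjusted p = 0.00052, edgeR). Bmp5 was also higher in the posterior palate (1.21, adjusted p = 0.041). Bmp4, the ligand that Msx1 and Osr2 act on in the tooth field, had a value of 0.25 (adjusted p = 0.491) with overlapping regions. Bmp7 (0.17, adjusted p = 0.411) overlapped too. Of the semaphorins, guidance cues that Osr2 is known to repress in palatal mesenchyme, Sema3a was higher in the posterior palate (1.34, adjusted p = 0.028), Sema3d had 1.12 (adjusted p = 0.082) and Sema3e -0.25 (adjusted p = 0.606). For Sema3a the higher posterior mean came with uneven libraries, at 154 CPM in posterior replicate 1 and 306 and 347 CPM in replicates 2 and 3, against 97.9 to 117 CPM in the anterior palate. Sema3d was at 111 CPM in posterior replicate 1, close to the anterior 97.2 to 108 CPM, and at 257 and 293 CPM in the other 2. These are the same libraries in which Osr2 was low, and the part that library differences had in this was not tested.

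**Figure D3:**
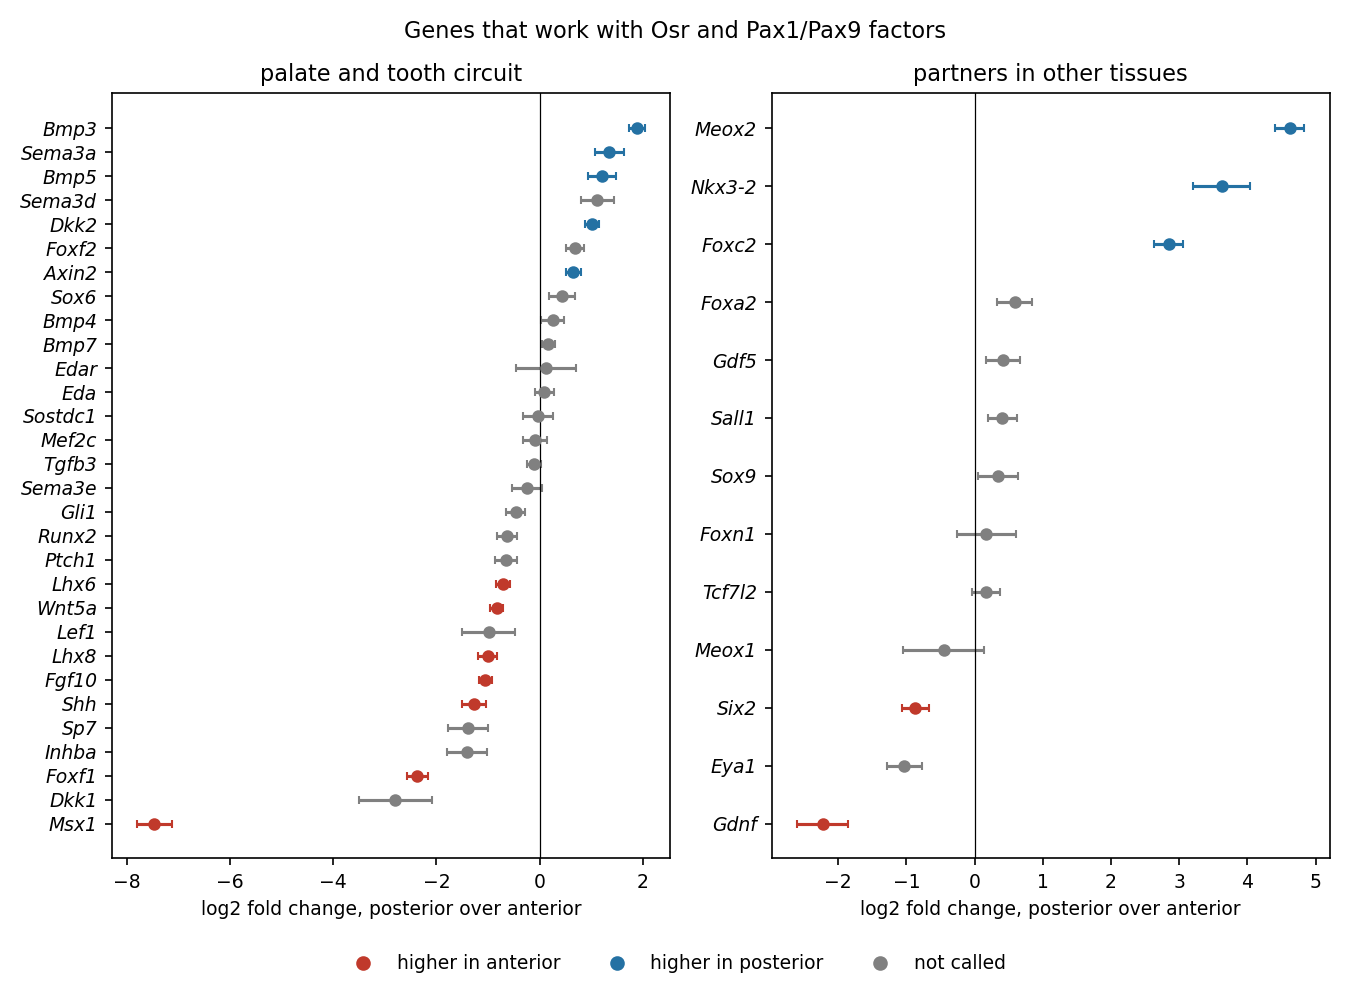
Log2 fold change, posterior over anterior (x axis), with its standard error, for the 30 tested palate and tooth genes (left) and the 13 tested partners from other tissues (right). Red marks genes higher in the anterior palate, blue genes higher in the posterior palate and grey genes that did not pass an adjusted p of 0.05. Msx1 lies farthest to the left at -7.46, and Meox2, Nkx3-2 and Foxc2 farthest to the right.

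Of the listed genes named as higher in a region, and of the other Pax genes below, Msx1, Foxf1, Fgf10, Wnt5a, Bmp3, Dkk2, Nkx3-2, Meox2, Foxc2, Pax3 and Pax7 kept their call under every alternative that tested them. Pax7 was tested under 15 of the 17 and Nkx3-2 under 12. Nkx3-2 reached the count minimum only through its posterior libraries, so no setting that left out a posterior library tested it. The 9 others, Shh, Bmp5, Sema3a, Axin2, Lhx6, Lhx8, Gdnf, Six2 and Pax6, lost it when at least 1 of the libraries was left out. Their highest adjusted p over the alternatives ran from 0.058 for Gdnf to 0.262 for Bmp5. In the 4 like libraries, Bmp5 (0.66, adjusted p = 0.262), Axin2 (0.52, adjusted p = 0.130), Six2 (-0.49, adjusted p = 0.125) and Lhx8 (-0.69, adjusted p = 0.051) were no longer called by edgeR. Sema3a stayed called there at a smaller log2 fold change of 0.54 (adjusted p = 0.022).

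A second list held 17 genes that act with Osr or Pax1 and Pax9 factors elsewhere, in the somites, limbs, kidney and pharynx, and 13 of them passed the count minimum. Of the 13, 3 were higher in the posterior palate, 2 were higher in the anterior palate and 8 did not pass, with a median log2 fold change of 0.35, beside 4.87%, 2.59% and a median of -0.004 for all tested genes. The 3 posterior genes are sclerotome or somite genes by background, but others of that background in the list did not follow them. Meox1 and Sox9 were not called, and Uncx was below the count minimum, with 0 or 1 counts per library. Nkx3-2, a target of Pax1 and Pax9 in the sclerotome, had 1, 3 and 1 counts in the anterior and 22, 23 and 26 counts in the posterior libraries (adjusted p = 0.0028, edgeR). Foxc2 was at 1.90 to 2.62 CPM in front and 13.2 to 18.9 CPM behind, a log2 fold change of 2.85 (adjusted p = 0.00046), beside 2.83 for Pax1. Meox2 was at 6.83 to 8.74 CPM in front and 149 to 243 CPM behind. On the anterior side, Gdnf, a growth factor of the kidney and nerves, had -2.23 (adjusted p = 0.013) and Six2, a homeobox gene of kidney and craniofacial mesenchyme, -0.87 (adjusted p = 0.041). Meox1, the paralog of Meox2, overlapped between regions (-0.45, adjusted p = 0.639), as did Sox9 (0.35, adjusted p = 0.470).

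The other Pax genes were either regional or near absent. Pax3, a neural crest and muscle precursor gene, was at 28.2 to 32.9 CPM in the anterior and 2.75 to 7.34 CPM in the posterior libraries, with a log2 fold change of -2.62 (adjusted p = 0.0029, edgeR). Pax7, its paralog, went the other way, from 16, 4 and 9 counts in the anterior to 64, 68 and 82 counts in the posterior libraries (2.74, adjusted p = 0.0075). Pax6 had 38, 16 and 13 counts in front and 0, 1 and 2 behind (adjusted p = 0.0129). Pax2, Pax4, Pax5 and Pax8 were below the count minimum, with 0 to 7 counts per library. Pax9 was therefore the only member of its family among these 9 genes with more than 40 CPM in any library.

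Markers of skeletal muscle moved with the regions, and the counts of calls for this and the other marker lists stand beside 4.87% of all tested genes called posterior and 2.59% called anterior. The 10 skeletal muscle markers were all called higher in the posterior palate, and their summed level was 12.4 to 16.7 CPM in the anterior against 638 to 1117 CPM in the posterior libraries. Without Myh3, the muscle marker with the largest gap, the sums were still 10.5 to 14.6 CPM and 476 to 757 CPM. These sums are high in the same libraries as Pax1, Nkx3-2 and Pax7, and their part in those results was not tested.

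For 3 further lists the summed level was higher behind, but the sums overlapped once the gene with the largest gap was left out. Chondrocyte markers summed to 294 to 398 CPM in front and 666 to 998 CPM behind. Without Col2a1 they summed to 226 to 297 CPM and 268 to 446 CPM, which overlap. Of the 9 tested, 3 were called posterior and 0 anterior, with a median log2 fold change of 0.73. Markers of muscle connective tissue and tendon summed to 138 to 169 CPM and 243 to 272 CPM, and without Kera to 134 to 166 CPM and 153 to 179 CPM, which overlap; 3 of 8 were called posterior and 2 of 8 anterior. Cranial neural crest mesenchyme markers summed to 4907 to 5465 CPM and 6033 to 9347 CPM, and without Col3a1 to 2090 to 2303 CPM and 1894 to 2592 CPM, which overlap. Of these 10 markers, 5 were called posterior and 2 anterior, among the latter Prrx1, at means of 1058 CPM in front and 417 CPM behind.

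Single libraries also stood apart in cell markers. Dental mesenchyme markers summed to 400, 559 and 946 CPM in anterior replicates 1, 2 and 3 and to 458 to 652 CPM in the posterior palate, with 3 of 8 called anterior and 1 of 8 posterior. Without Barx1, the posterior one, the sums did not overlap, at 354 to 807 CPM in front and 219 to 267 CPM behind. Msx1, at 146 to 282 CPM in front and 1.03 to 1.37 CPM behind, was among the markers left. Sums without Msx1 as well were not formed, so this gap may rest on that gene. Tfap2b of that list was at 1.97, 15.4 and 117 CPM in the anterior libraries. Anterior replicate 3, the highest here, was also the anterior library in which Pax9 was highest and overlapped the posterior ones; the part of this in the Pax9 result was not tested. Neuron and glia markers summed to 256 CPM in posterior replicate 2 and to 32.4 to 65.1 CPM in the other 5 libraries. Epithelial markers overlapped, at 1824 to 1944 CPM in the anterior and 1284 to 2044 CPM in the posterior libraries, with 2 of 12 called anterior. Osteoblast markers summed to 5911 to 8725 CPM and 6685 to 11766 CPM, which overlap, and without Col1a1 to 2010 to 3633 CPM in front and to 298, 514 and 1861 CPM in posterior replicates 1, 2 and 3, which do not. Of the 9 tested, 2 were called anterior, and the median log2 fold change was -1.35. The osteoblast sums without Col1a1 and the dental sums without Barx1 are high in the same region as Osr1, unlike the full sums, which overlap. The part of these lists in the Osr1 result was not tested. None of the 8 markers each of endothelium, myeloid cells, and neurons and glia was called by edgeR (of these 24, 8 had an unadjusted p below 0.05, and DESeq2 called 2 and limma-voom 0). Of the 6 markers of pharyngeal, thymus and parathyroid epithelium, a site of Pax1 and Pax9 expression, 2 passed the count minimum and none was called by edgeR, DESeq2 or limma-voom (0 at an unadjusted p below 0.05). Gcm2 and Pth were at 0 counts in all 6 libraries, and Hoxa3 had 0 counts in each anterior library and 7, 2 and 3 in the posterior ones. Foxi3 of the same list had 2, 2 and 47 counts in the anterior libraries, again highest in replicate 3, and 0 in each posterior library.

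The genes whose pattern over the 6 libraries was most like each member were taken by Pearson correlation of log2 CPM, among protein-coding genes with a mean of at least 10 CPM. The 6 points share region, depth and library differences, so the values are descriptions. For Osr1 the nearest were Pde5a (r = 0.991), Foxf1 (0.991), Ppfibp2 (0.990), Kctd12b and Mab21l1. For Pax1 they were Pou6f1 (0.999), Nkd2 (0.994), Tgfbi (0.994), Tbx15 and Foxd1. For Osr2 they were Ctdsp2 (0.998), Zfp362 (0.994), Xrcc1, Med25 and Aph1a, and for Pax9 Nfil3 (0.985), Penk (0.983), Lix1l, Agpat3 and Cdc25b. Since these genes were chosen for following a member over the same libraries, no count of calls is given for them. Penk ran from 97.4 CPM in anterior replicate 2 to 201 CPM in posterior replicate 1, the same lowest and highest libraries as Pax9.

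None of the 4 tested genes within 250 kb of the members was called by edgeR or limma-voom (2 had an unadjusted p below 0.05 in edgeR), and DESeq2 called 1, Vps13b. Reads on the opposite strand were 0.57% of those on both strands together for Osr1 and Pax9, 0.78% for Osr2 and 2.92% for Pax1. The antisense gene Gm15524 at the start of Pax9 had 9 to 34 counts per library, and Slc25a21, whose last exon overlaps 189 bases of a Pax9 exon, had 7 to 45. AI646519, which overlaps 183 bases of a Pax1 exon on the opposite strand, had 0 to 15 counts. The antisense gene 1700022H16Rik at the start of Osr1 had none. Within 250 kb of Pax9, Nkx2-1 and Nkx2-9, and near Pax1, Nkx2-2, had at most 1 count per library, so the raised Pax1 counts had no counterpart in that neighbour. Next to Osr2, Vps13b was at 27.0 to 36.2 CPM in the anterior libraries and at 28.8 CPM in posterior replicate 1, against 76.4 and 81.3 CPM in posterior replicates 2 and 3. It did not pass edgeR's test (log2 fold change 1.02, adjusted p = 0.136, edgeR), and its high libraries were those in which Osr2 was low.

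**Figure D4:**
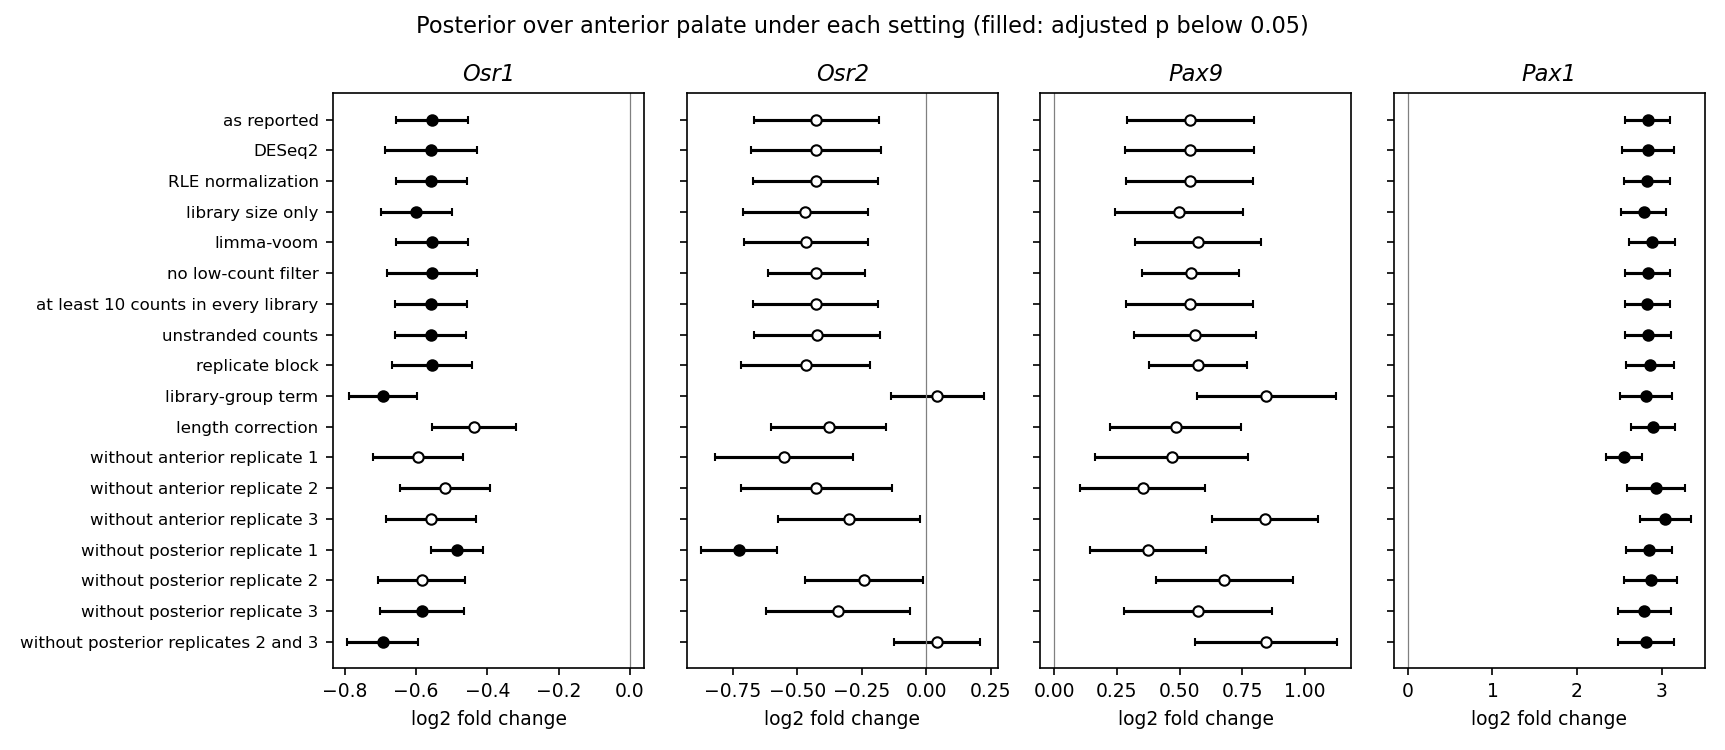
Log2 fold change, posterior over anterior (x axis, a separate scale for each gene), with its standard error, for the 4 genes under the reported fit and 17 alternatives (y axis). Filled points passed an adjusted p of 0.05 and open points did not. Pax1 is filled throughout, Pax9 open throughout, Osr1 opens under 5 settings, and Osr2 is filled only without posterior replicate 1 and lies at 0.04 in the 2 settings that account for the libraries standing apart.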

How the data were processed

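The 6 bulk RNA-seq libraries, 3 for each region of the palate, were grouped by their labels. The authors deposited raw read counts per gene for each library, in the layout of STAR's gene counts, although the submitters' processing notes name HISAT2, StringTie and DESeq2 (1.30.1) with mm10; the annotation release is not given in the sources used here. The reverse-stranded counts were used, as they exceeded the other strand 19.0 to 23.1-fold. Symbols, positions and exon lengths came from GENCODE M21 (GRCm38). The test used edgeR 4.0.16 on genes that reached a minimum of 10 counts in 3 or more libraries (TMM scaling, quasi-likelihood test, region as the only term, R 4.3.3), with Benjamini-Hochberg adjustment over all tested genes at 0.05. CPM are TMM-scaled. Ratios and CPM were compared by exact permutation in Python 3.11.15 (scipy 1.17.1). DESeq2 1.42.0, limma-voom 3.58.1 and other settings were alternatives. The fit was checked on simulated counts. The members and lists were chosen with earlier results of these data known. Named were the 4 members, the listed genes that were called, the regional reference genes, the other Pax genes, the 5 genes most alike to each member and overlapping genes; uncalled listed genes and Vps13b were named after their values were seen. No libraries of a region agreed within sampling noise. Intervals of counts cover counting error only. Replicate numbers did not mark a stated litter or batch.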

Additional observations from a re-analysis of the deposited data

How the results depend on the processing

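Pax1 kept its call under all 17 alternatives, Pax9 stayed uncalled under all 17, and Osr2 over Pax9 kept its size under all 13. The count of called genes, 1169, was 1978 with DESeq2, 2162 with no count minimum and 498 to 7119 when 1 library was left out (7119 without posterior replicate 1, 498 without anterior replicate 2). For the palate and tooth list, 12 calls became 19 with DESeq2, 19 with no count minimum and 6 to 23 with 1 library left out (23 without posterior replicate 1, 6 without anterior replicate 2 or posterior replicate 2, and 7 without anterior replicate 3). For the partners, 5 calls became 3 with the count minimum set in all libraries, and 3 to 5 with 1 library left out (3 without anterior replicate 1, 2 or 3 or posterior replicate 3). Osr1 was -0.44 with the length correction, no longer called, and -0.59 to -0.49 with 1 library left out. Osr2 was -0.73 to -0.24 with 1 library left out, called at -0.73 without posterior replicate 1. It turned to 0.042 with a term for the 2 posterior libraries that stand apart and to 0.041 without them. Both of these settings set posterior replicate 1 against the anterior libraries, so they are not separate checks. Osr2 over Osr1 ranged from -0.23 (without posterior replicate 1) to 0.32, was -0.0043 without anterior replicate 1, and 0.73 without posterior replicates 2 and 3. Pax9 over Pax1 was -2.02 with 0.1 and -0.44 with 2 CPM per kb added. These causes were not tested. The settings without posterior replicates 2 and 3, and the ratios per protein-coding transcript, were chosen after seeing the data; in the first, the lone posterior library is assumed to vary like the anterior ones. Over the 20 other listed genes, 280 of 328 values kept their call, 48 lost it and none reversed.

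With the replicate number as a block, 829 genes were called, 11 and 4 in the lists, and Osr1 was -0.56 (adjusted p = 0.045, edgeR); no call on the 4 members changed. Same-numbered libraries did not deviate together (correlations -0.049, 0.059 and 0.037), so the numbers were not taken to pair the libraries. Pax1 rested on 13 to 26 counts per anterior library, which limits the precision of its fold change.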
